A study of Homo sapiens with 16 samples.

Results

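LSD1 (KDM1A) is a histone demethylase that works within chromatin repressor complexes such as CoREST. HOTAIR is a long non-coding RNA whose separate ends bind the LSD1 complex and PRC2, the complex that methylates histones at silenced genes. The regions described here carried a called LSD1 island in both replicate cultures of the line Epi-HOT<delta>L and in no library of any other line of the study. All islands of the 8 lists on the autosomes were merged where they shared at least 1 bp, which gave 41637 regions. Of these, 1048 (2.52%) met that rule. The calls themselves chose these regions, so their number, width and FDR are given as a description and without a test.

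LSD1 binding was profiled by ChIP-seq, the sequencing of chromatin recovered with an antibody against LSD1, in 4 lines based on HEK (human embryonic kidney) cells, with 2 independently grown cultures a line. As far as is known of the study apart from its labels, the control is Epi-CTR, full-length HOTAIR is expressed in Epi-HOT, a HOTAIR lacking the part that interacts with PRC2 in Epi-HOT<delta>P, and a HOTAIR lacking the part that interacts with LSD1 in Epi-HOT<delta>L. The labels give the names alone, and no treatment. The last pair of lines is written Epi-HOT-dP and Epi-HOT-dL from here on. Each list holds the islands of an immunoprecipitated (IP) library, called with Input chromatin from that culture as control, an island being a stretch of neighbouring windows richer in IP reads than background. The labels do not say whether a line is 1 clone or how HOTAIR was introduced.

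The lists differed in length before any region was compared. Autosomal islands numbered 16740 and 15681 in Epi-HOT-dL replicates 1 and 2, 20551 and 14899 in Epi-CTR, 6504 and 1776 in Epi-HOT, and 1114 and 8077 in Epi-HOT-dP. Replicate 2 of Epi-HOT and replicate 1 of Epi-HOT-dP stood apart as the shortest lists, covering 0.561% and 0.452% of the autosomal span against 2.77% to 7.26% in the other 6. Without this pair of libraries 1053 regions met the rule. No reads are listed, so sequencing depth is unknown, and a place with no call may have had too few reads for one.

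The 1048 regions were a minority of what the Epi-HOT-dL cultures shared. Both libraries of the line had an island in 4859 merged regions (11.7% of all), and 21.6% of these (exact 95% interval 20.4 to 22.8) met no island elsewhere. Another 1106 met an island of a single other library, 1065 of 2, 1001 of 3, 617 of 4, 21 of 5 and 1 of all 6. Where a single other library kept a region off the list, it was Epi-CTR replicate 1 at 465 regions, Epi-HOT replicate 1 at 240, Epi-CTR replicate 2 at 230 and Epi-HOT-dP replicate 2 at 166. Replicate 2 of Epi-HOT did so at 3 regions and replicate 1 of Epi-HOT-dP at 2. The regions thus made up 69.0% of those that both Epi-HOT-dL libraries and neither Epi-CTR library held, but 32.0% of those absent from both Epi-HOT libraries and 35.0% of those absent from both Epi-HOT-dP libraries.

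The same rule gave 1534 regions (3.68% of all) for Epi-CTR, 57 (0.137%) for Epi-HOT-dP and 19 (0.0456%) for Epi-HOT. As a share of what both libraries of a line held, the values were 24.5%, 28.9% and 8.05%, against 21.6% for Epi-HOT-dL. The 2 lines with the most such regions are also the lines with the longest lists. With every list reduced to its 1114 islands of smallest FDR, 34 regions were held by Epi-HOT-dL alone, 91 by Epi-CTR alone, 14 by Epi-HOT alone and 5 by Epi-HOT-dP alone. These made up 22.2% of the 153 regions that both Epi-HOT-dL libraries then held, 28.0% of 325 for Epi-CTR, 51.9% of 27 for Epi-HOT and 55.6% of 9 for Epi-HOT-dP. The share of Epi-HOT-dL thus lay between those of the other lines in the lists as deposited and was the lowest of the 4 in lists of equal length. Only 5 of the 1048 regions shared a base with those 34. A smaller set of 453 regions (1.09%) was shared by all 4 libraries of Epi-CTR and Epi-HOT-dL and by no other. Without replicate 1 or 2 of Epi-HOT-dL, 6222 or 8101 regions were held by its remaining library alone.

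In both lists the regions ran through the whole ranking by FDR, with the median near its middle. Their median FDR was 0.00935 in replicate 1 and 0.00430 in replicate 2, against 0.00797 and 0.00266 over all autosomal islands of the same lists. The median region stood at 52.7% of the way down the list of replicate 1 and at 55.7% in replicate 2, 0% being the smallest FDR. Of the regions, 86 (8.21%) lay in the best 10% of the list in replicate 1, 60 (5.73%) in replicate 2 and 8 in both. The worst 10% of the list held 111 in replicate 1 and 124 in replicate 2. An FDR of at most 0.001 was reached by 195 regions in replicate 1, 374 in replicate 2 and 89 in both, and 208 had an FDR above 0.01 in both. Ranks in the replicates went together only loosely, with Spearman's rho 0.12 across the 1048 regions; these share 2 libraries, are not independent, and the coefficient is a description.

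**Figure D1:**
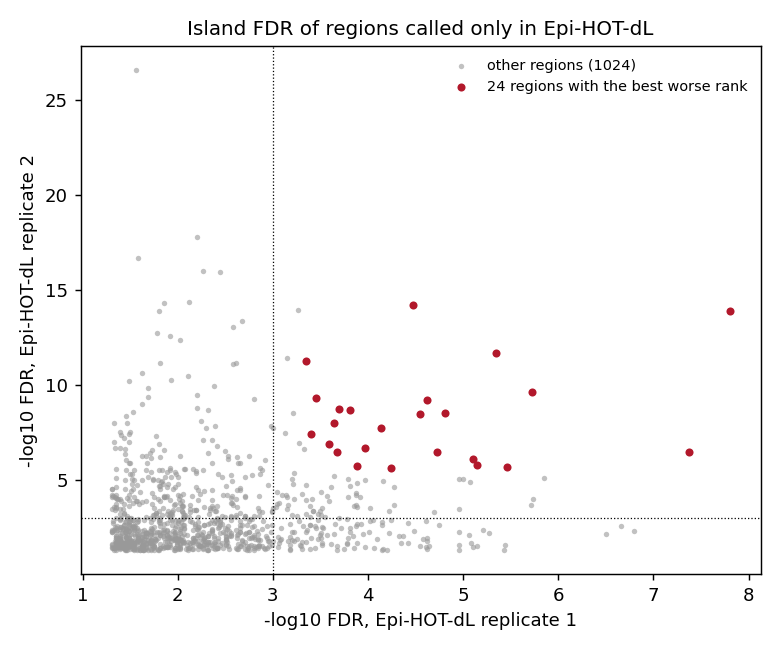
Each point is 1 of the 1048 regions, placed by the -log10 FDR of its best island in Epi-HOT-dL replicate 1 (x axis) and replicate 2 (y axis), with dotted lines at an FDR of 0.001. Red points are the 24 regions with the best of the worse of their 2 ranks; 89 regions lie beyond both lines, and 568 short of both.

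The strongest region by both replicates lay at chromosome 9 from 108554601 to 108566400. The FDR was 1.58e-08 (rank 78) in Epi-HOT-dL replicate 1 and 1.29e-14 (rank 514) in replicate 2, and the nearest island of another line was 186 kb away, in Epi-CTR replicate 1. The second, at chromosome 22 from 49545201 to 49557600, reached FDRs of 4.54e-06 and 2.13e-12. A stretch of 34.4 kb at chromosome 1 from 3502801 to 3537200 followed, with FDRs of 3.39e-05 and 5.77e-15. The worse of the 2 ranks was 514, 702 and 882 for these 3 regions.

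Some strong regions were narrow and clear of other islands. At chromosome 6 from 144328001 to 144330400, a region of only 2.4 kb had FDRs of 1.87e-06 and 2.36e-10, with the nearest other island 64.4 kb off. The region at chromosome 14 from 106343601 to 106347600 spanned 4 kb, with FDRs of 1.54e-05 and 2.94e-09, and lay 348.6 kb from any other line's island. At chromosome 10 from 25010001 to 25017000 the FDRs were 7.34e-05 and 1.74e-08 and the nearest other island lay 51.2 kb away. At chromosome 4 from 38662601 to 38667600 they were 0.000257 and 1.33e-07, with 62.4 kb to the nearest other island. All 4 were thus over 50 kb from the nearest island of another line.

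Other strong regions varied in width and in their distance to islands of other lines. A stretch of 32 kb at chromosome 19 from 34245801 to 34277800 held 3 islands of replicate 1 under a single one of replicate 2, with best FDRs of 2.43e-05 and 6.03e-10, and lay 19.8 kb from the nearest other island. A stretch of 30.4 kb at chromosome 2 from 242114401 to 242144800 reached FDRs of 2.88e-05 and 3.46e-09. At chromosome 11 from 1439801 to 1450400 the FDRs were 0.000155 and 2.14e-09, yet an island of Epi-HOT replicate 1 began or ended 1.4 kb away. At chromosome 21 from 47492401 to 47505800 an island of Epi-HOT-dP replicate 2 lay 2.4 kb off, beside FDRs of 0.000200 and 1.93e-09. Among the 24 regions with the best ranks, 4 lay on chromosome 19, the others of these being at 51203601 to 51232000 (4.25e-08 and 3.33e-07), 10160401 to 10190000 (1.90e-05 and 3.40e-07) and 8255801 to 8261800 (5.79e-05 and 2.20e-06). The 24 also included chromosome 7 from 155348001 to 155375000 (0.000108 and 2.11e-07) and from 396401 to 401000 (0.000395 and 3.68e-08), near the chromosome's opposite ends. Of these last 5, the region starting at 51203601 was 28.4 kb wide and 47.2 kb from the nearest other island, while those starting at 8255801 and 396401 were 6 and 4.6 kb wide and 2.2 and 1.8 kb from one.

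Islands were wider in replicate 2 than in replicate 1. The merged regions had a median width of 9.4 kb (quartiles 6.2 and 14.45 kb) and together covered 12.3 Mb, or 0.441% of the autosomal span. Islands of replicate 1 in them had a median of 3.8 kb and covered 4.87 Mb, while those of replicate 2 had a median of 8.2 kb and covered 11.4 Mb; the whole lists had medians of 3.8 and 7.6 kb. Replicate 2 covered more of the region at 898 regions and replicate 1 at 127. The cultures shared 3.97 Mb, which was 81.5% of the length called in replicate 1 and 34.9% of that in replicate 2. At 598 regions (57.1%) the islands of replicate 1 lay wholly inside those of replicate 2, at 55 the reverse held, and at 10 of all regions both had the same extent.

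Most regions had a simple make-up. At 961 of them each culture had a single island, at 71 replicate 1 had more than 1 and at 20 replicate 2 did. The widest was at chromosome 18 from 77169401 to 77227000, 57.6 kb with FDRs of 0.00364 and 1.17e-16, and the next at chromosome 3 from 47426801 to 47483000, 56.2 kb with weak FDRs of 0.0216 and 0.0224. The third, at chromosome 21 from 45326601 to 45380600, spanned 54 kb. In all, 41 regions were at least 30 kb wide. At the other extreme, the region at chromosome 10 from 135491001 to 135491200 was a single window of 200 bp called in both cultures (0.000312 and 4.09e-05), and regions of 1.4 kb lay at chromosome 2 from 238969001 to 238970400 and chromosome 3 from 132378401 to 132379800. The 50% reciprocal overlap of islands, which the difference in width makes hard to reach, left 380 regions.

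Among regions of both Epi-HOT-dL libraries with 0 to 4 other libraries, those that more of the others held were wider, and with 2 to 4 others they ranked better in both cultures than those with none. The median width was 9.4 kb with no other library and 13.6, 18.8, 32.2 and 61.4 kb with 1, 2, 3 and 4. The median rank in replicate 2 was at 55.7% of the list with none and at 43.4%, 39.3%, 24.8% and 5.87% with 1 to 4. In replicate 1 it was at 52.7%, and then at 53.5%, 48.4%, 40.8% and 22.9%. Merged width grows by construction where more lists take part, but single islands were wider too: the median was 3.8 kb with no other library and 5.6 kb with 4 in replicate 1, and 8.2 and 25.2 kb in replicate 2. The 21 regions with 5 other libraries broke this order, with a median width of 28.0 kb and median ranks at 14.6% in replicate 1 and 38.1% in replicate 2. The single region with all 6 was 11.8 kb wide. A wide island also has more room to meet another list, so width and the rule are not independent.

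**Figure D2:**
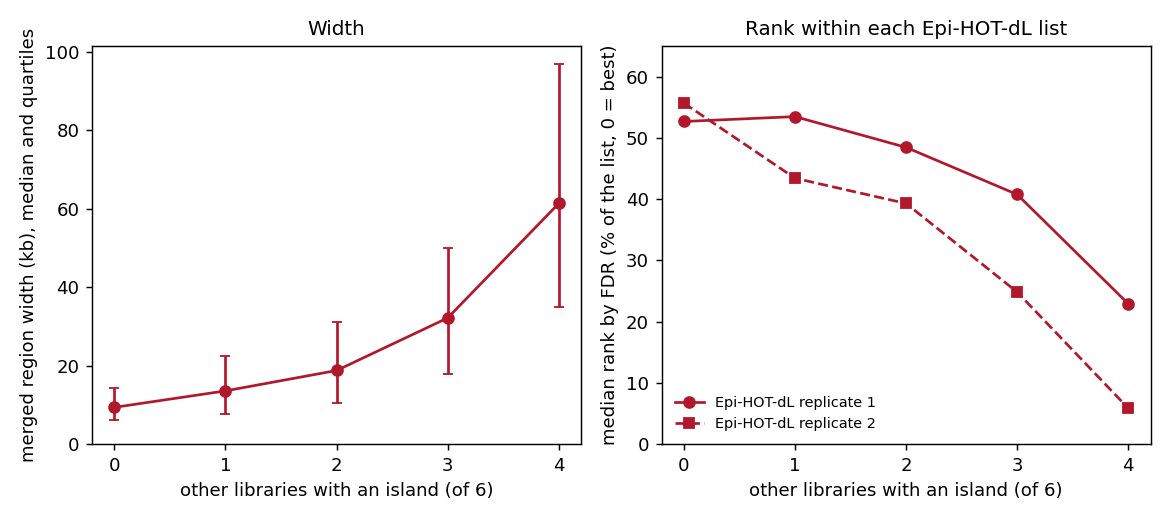
Left, merged region width (kb, median with quartiles as bars) and right, median rank by FDR as a percentage of each Epi-HOT-dL list (0 is the smallest FDR), for regions of both Epi-HOT-dL libraries grouped by how many of the other 6 libraries had an island (x axis). Regions with 0 others are the 1048 described here, at 9.4 kb; those with 4 others reach 61.4 kb, and the 22 regions with 5 or 6 others are not drawn.

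The word "only" holds for calls, not for neighbourhoods. The median distance from a region to the nearest island of any of the other 6 libraries was 12.3 kb (quartiles 4.4 and 27.6 kb). Such an island lay within 10 kb at 461 regions (44.0%, exact 95% interval 41.0 to 47.1) and within 100 kb at 985 (94.0%), which left 63 regions without one. Neither share was computed for all merged regions or for the autosomal span, so they are not a trait of these regions. By library, the median distance was 31.3 kb to Epi-CTR replicate 1, 38.5 kb to Epi-CTR replicate 2, 55.4 kb to Epi-HOT replicate 1 and 57.2 kb to Epi-HOT-dP replicate 2. It was 914 kb to replicate 2 of Epi-HOT and 1841 kb to replicate 1 of Epi-HOT-dP, the shortest lists. At 557 regions (53.1%) islands of other libraries stood within 50 kb on both sides. Regions held only by Epi-CTR had a like median distance of 11 kb, and 47.5% of them had an island of the other 6 libraries within 10 kb.

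At the limit of the rule the calls turned on single windows. In 5 of the regions an island of another library touched the region without sharing a base, among them chromosome 3 from 53212201 to 53242200 (Epi-CTR replicate 2), chromosome 3 from 137836201 to 137845600 (Epi-HOT replicate 1) and chromosome 10 from 72988601 to 73010200 (Epi-CTR replicate 1). Their FDRs in Epi-HOT-dL replicate 1 were 0.0448, 0.0362 and 0.0347, and in replicate 2 0.000184, 0.0207 and 2.85e-06. Just outside, chromosome 1 from 226016601 to 226028200 (FDRs of 0.00952 and 0.0394) and chromosome 4 from 2351601 to 2378600 (0.00276 and 7.27e-08) shared 200 bp with an Epi-CTR island, and chromosome 3 from 149470001 to 149472600 shared 400 bp. The highest FDR of a best island among the regions was 0.0497 in replicate 1 and 0.0499 in replicate 2. Few cases were this close: 48 regions had another library's island within 1 kb, and 32 of the 1106 regions with a single other library shared at most 1000 bp with it.

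**Figure D3:**
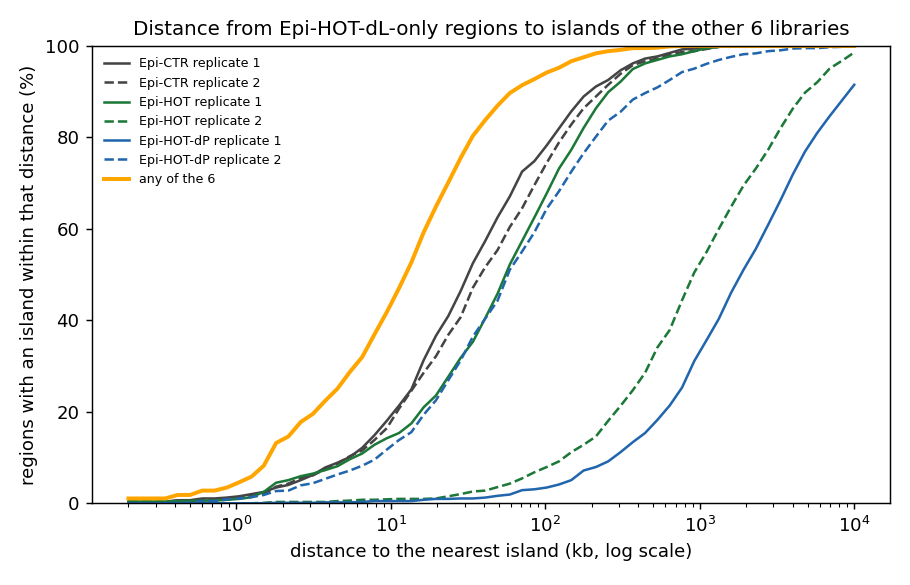
Cumulative share of the 1048 regions (y axis, %) that have an island of the named library within the distance on the x axis (kb, log scale); the orange line takes the nearest island of any of the 6. At 100 kb the 4 longer lists reach 63.6% to 78.1%, and the shortest, replicate 2 of Epi-HOT and replicate 1 of Epi-HOT-dP, stay at 7.82% and 3.44%.

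The 63 regions with no other island within 100 kb also had median ranks near the middle of the lists, at 47.6% in replicate 1 and 44.4% in replicate 2. Their median FDRs were 0.00695 and 0.00154, against 0.00866 and 0.00428 for the 461 with an island within 10 kb, and their median width was 7.8 against 10.4 kb. They lay on 19 chromosomes, with 7 on chromosome 14, 6 each on chromosomes 6 and 10 and 1 on chromosome 1. A group of 3 stood together on chromosome 14, from 106304201 to 106313400 (0.0130 and 0.000587), from 106329201 to 106334600 (0.00262 and 7.91e-12) and from 106343601 to 106347600, described above, all over 300 kb from any island of another line; the first pair was picked out after its values had been seen. The most distant regions were at chromosome 8 from 2987201 to 2995000, 703.8 kb from the nearest other island, with FDRs of 0.0260 and 0.00453, at chromosome 20 from 8110801 to 8114200, 622.8 kb away, and at chromosome 6 from 146284801 to 146286200, 573.2 kb away. None of these last 3 was among the 24 with the best ranks.

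Outside their edges, the regions lay where islands of most libraries were dense. Between 10 and 50 kb from an edge, islands of Epi-HOT-dL replicate 2 covered 27.1% of the bases, 3.73 times their cover of the whole autosomal span, and those of replicate 1 covered 8.00%, 2.89 times. Epi-HOT replicate 1 covered 8.49% (2.83 times), Epi-HOT-dP replicate 2 6.65% (2.37 times) and Epi-CTR replicates 1 and 2 6.11% and 5.88% (1.88 and 2.05 times). Replicate 2 of Epi-HOT and replicate 1 of Epi-HOT-dP covered less than their average, 0.580 and 0.424 times. At 100 to 200 kb the ratios were 3.18 for Epi-HOT replicate 1 and 1.98 for Epi-CTR replicate 1. In the first 5 kb the cover of every library was lower than between 10 and 50 kb. The same held around regions that both Epi-HOT-dL libraries shared with other lines. There Epi-CTR replicate 1 covered 1.53 times its average in the first 5 kb and 3.19 times between 10 and 50 kb. For Epi-HOT replicate 1 the values were 1.55 and 3.85 times. In both sets the merging took any island that crossed an edge into the region itself, which lowers the cover beside the edge by construction. Islands of a list also keep a gap of over 1 kb. How much of the lower cover comes from these rules was not tested.

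Flanks of the regions held only by Epi-CTR gave another order of libraries. There, between 10 and 50 kb, Epi-HOT replicate 1 covered 1.41 times its average and Epi-HOT-dL replicate 2 1.37 times, while Epi-HOT replicate 2 covered 2.45 times. Around the regions that both Epi-HOT-dL libraries shared with other lines, the ratios were higher than around the 1048 for all 6 other libraries, at 3.85 times for Epi-HOT replicate 1, 3.19 and 3.38 times for Epi-CTR and 3.80 times for Epi-HOT-dP replicate 2. The shared regions were chosen for holding an island of at least 1 of these 6 libraries, and the 1048 for holding none. The ratios of those libraries are thus not independent of that choice. These differences were not tested, since neighbouring regions also share the same flanks.

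**Figure D4:**
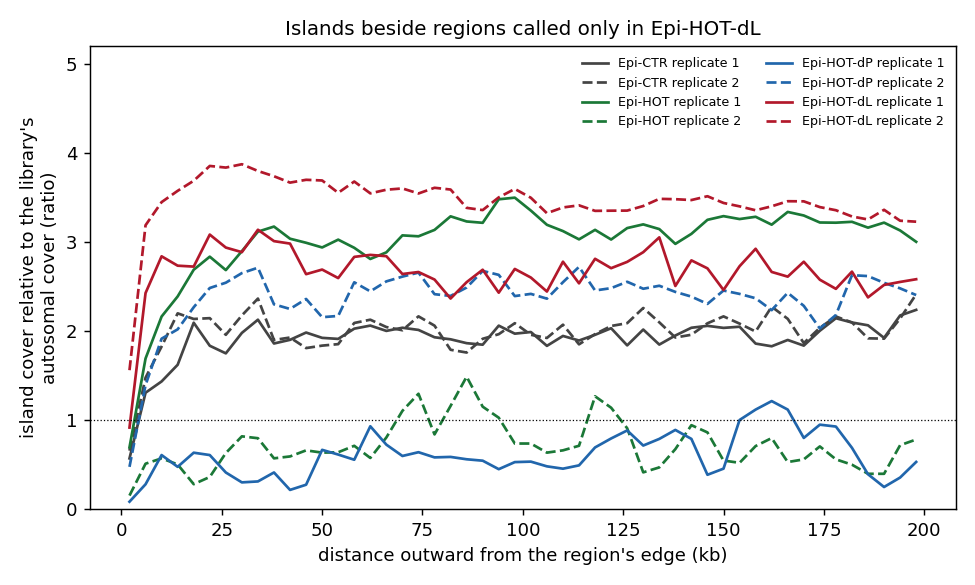
Share of bases covered by islands of each library at increasing distance outward from the edges of the 1048 regions (x axis, kb, in steps of 4 kb), divided by the share of the autosomal span that the library covers (y axis; the dotted line at 1 is the library's average). The lines of 6 libraries run above 1 beyond the first kilobases, and those of replicate 2 of Epi-HOT and replicate 1 of Epi-HOT-dP mostly below it.

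The regions were spread over all 22 autosomes, at 0.376 per Mb on average. Chromosome 22 was the densest with 0.938 per Mb (32 regions), followed by chromosomes 19 (0.850, 50 regions) and 17 (0.727, 59 regions), and chromosomes 13 (0.126, 12 regions) and 4 (0.173, 33 regions) were the sparsest. Across the 22 chromosomes this density followed that of the regions shared with other lines, with Spearman's rho 0.93, and followed that of the Epi-CTR-only regions with rho 0.59; chromosomes share gene density and base composition, and the coefficients are a description. Chromosome 19 carried 4.77% of the regions (exact 95% interval 3.56 to 6.24) against 7.87% (7.04 to 8.77) of those shared with other lines and 1.89% of the Epi-CTR-only regions. On chromosome 8 the order was the other way, with 4.68% (3.48 to 6.13) against 3.12% (2.59 to 3.73). The intervals cover counting error only, and with FDRs of at most 0.001 in both Epi-HOT-dL lists chromosome 19 held 10.1% of 89 regions.

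**Figure D5:**
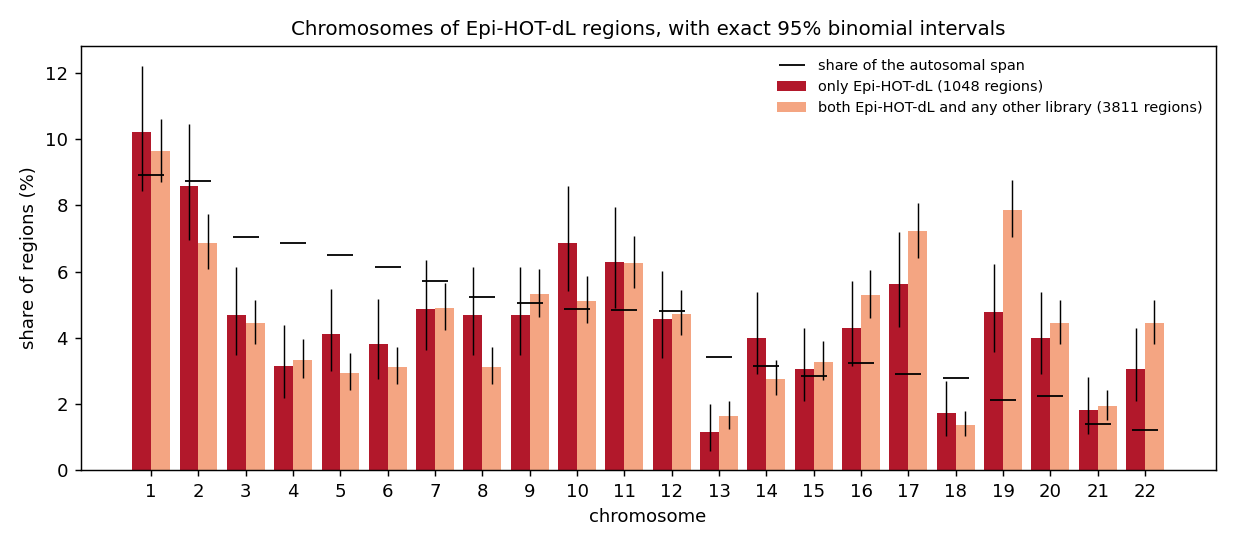
Share of regions on each autosome (y axis, %) for the 1048 regions held only by Epi-HOT-dL and the 3811 that both Epi-HOT-dL libraries shared with other libraries, with exact 95% binomial intervals as lines, and the chromosome's share of the autosomal span as black dashes. The intervals stand apart on chromosome 19, where the regions held only by Epi-HOT-dL make up 4.77% against 7.87%. Of the shared regions with 1 other library, 4.88% lie there.

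Regions near chromosome ends made up a large share. Of the 1048, 258 (24.6%, exact 95% interval 22.0 to 27.3) lay within 5 Mb of the first or last island of a chromosome, stretches that make up 7.90% of the span. The share was 22.3% (21.0 to 23.7) among regions shared with other lines and 7.43% (6.17 to 8.86) among those held only by Epi-CTR. The lists themselves differed in the same way: 17.1% and 22.8% of islands lay in these stretches in Epi-HOT-dL replicates 1 and 2, 13.1% and 12.6% in Epi-CTR, 19.1% in Epi-HOT replicate 1, 16.5% in Epi-HOT-dP replicate 2, and 4.00% and 5.57% in the shortest lists, of Epi-HOT and Epi-HOT-dP in that order. Replicate 2 of Epi-HOT-dL had the highest share of the 8 lists, and its part in the result was not tested beyond leaving it out. Without it, 13.9% of the regions that replicate 1 then held alone were near an end, and without replicate 1 the share was 24.4%.

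Many of the strongest regions lay near ends. Of the 89 regions with an FDR of at most 0.001 in both cultures, 43 (48.3%, exact 95% interval 37.6 to 59.2) lay within 5 Mb of an end, and of the 24 with the best ranks 14 did. The share was not computed for regions of like FDR that were shared with other lines. It thus cannot be called particular to the regions described here. Regions near an end had a median FDR of 0.00764 in replicate 1 and 0.000430 in replicate 2, and the other 790 regions 0.00959 and 0.00623, which is a wider gap in replicate 2 than in replicate 1. The median width near an end was 11.2 against 8.8 kb. Chromosomes 8, 1 and 7 had the most, with 21, 20 and 19. What these stretches share in sequence or gene content was not analysed here.

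Most regions had no other of the set within 100 kb, but some stood in groups. The spacing was not compared with that of evenly spread regions. The median distance to the next such region was 269 kb, 311 regions (29.7%) had one within 100 kb and 65 within 10 kb. They fell into 651 stretches of 1 Mb, 409 of which held 1 region each and 149 held 2. Few stretches held many. The stretch from 3 to 4 Mb of chromosome 1 held 9, of 16 regions that both Epi-HOT-dL libraries held there, and the stretch before it, from 2 to 3 Mb, held 6 of 15. The stretch from 134 to 135 Mb of chromosome 10 held 7 of 19. That from 2 to 3 Mb of chromosome 1 was 1 of 5 stretches with 6 regions, and was taken first by position. The others were chromosome 5 from 178 to 179 Mb (6 of 8), chromosome 9 from 138 to 139 Mb (6 of 12), chromosome 11 from 70 to 71 Mb (6 of 13) and chromosome 17 from 71 to 72 Mb (6 of 10).

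On chromosome 1 several of these regions stood side by side. Regions from 3245001 to 3251800, 3253601 to 3302800 and 3310401 to 3336800 followed each other with gaps of 1.8 and 7.6 kb. The third of them had the smallest FDR of all 1048 in replicate 2, 2.53e-27, but only 0.0275 in replicate 1, and the second had 1.00e-16 and 0.00550. Both were thus among the strongest of replicate 2 and of middling or low rank in replicate 1, while the region from 3502801 to 3537200, further along, ranked high in both cultures. Another strong one, from 3171801 to 3202000, had FDRs of 0.000229 and 1.03e-08. Below 3 Mb, the region from 2713001 to 2733600 had FDRs of 0.000132 and 1.94e-06, and the one from 2884001 to 2893000 had 5.98e-05 and 0.000431. An island of another library lay within 10 kb of the regions starting at 3502801, 3171801 and 2713001, and 24.8 kb from that starting at 2884001.

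On chromosome 10, the 7 regions between 134083201 and 134978200 also differed between the cultures. The region from 134536001 to 134583400, 47.4 kb wide, had an FDR of 1.66e-18 in replicate 2 and 0.00635 in replicate 1. That from 134794401 to 134811600 had 2.17e-06 and 3.45e-06 and was the only one of the 7 among the 24 with the best ranks. At all 7 the nearest island of another line belonged to Epi-HOT replicate 1, at 2.8 to 21.8 kb.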

How the data were processed

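ChIP-seq islands of LSD1 came from 8 IP libraries, 2 cultures of each of 4 lines, each list called against its own Input, per the labels. The only deposited measurement is an FDR per island, an adjusted p-value by the authors' caller, used here to rank and filter within a list. Per the submitters' processing notes, SICER 1.1 (a caller of broad islands), Bowtie2 2.1.0 (an aligner) and hg19 were used, with no role stated; per the labels the window was 200 bp, the gap 1000 bp and the FDR limit 0.05, and the list names mark a further filter without explaining it. Depth is unknown, so a missing island does not show missing LSD1.

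Islands on the 22 autosomes were merged where they shared 1 bp; coordinates are hg19 and counted from 1. Where a region held several islands of a library, the smallest FDR was taken. Intervals are exact 95% binomial intervals over regions or islands and cover counting error only. The regions, lists and alternatives were chosen with earlier results of these data known. Regions were named by rule: the 24 that ranked best when each region takes its poorer rank of the 2 lists, the 3 widest, narrowest, farthest from and nearest to other libraries, the 3 just outside the limit, and those in the 3 fullest stretches of 1 Mb. Ties between stretches went by position. Chromosome ends are the first and last island in any list. The gene and promoter tables at hand are of another build than hg19, so genes and sequences are not analysed here. The scripts were tested on simulated lists, in which each planted site stood apart from the others, and recovered all 200 planted regions among 2200. This checked the code and says nothing of the calls in the real lists. Values were computed with pandas 2.3.3, numpy 2.4.6 and scipy 1.17.1 under Python 3.11.15, and drawn with matplotlib 3.10.9.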

Additional observations from a re-analysis of the deposited data

How the results depend on the processing

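Other settings were used to recount the 1048 regions and their values; the share near chromosome ends was added after seeing the data. An FDR of at most 0.001 in all 8 lists gave 170 regions (median width 12.6 kb, 29.4% with another library's island within 10 kb, 100% at that FDR by construction, 9.41% on chromosome 19, 47.1% near an end). Of these 170, 89 met 1 of the 1048. The same limit in the Epi-HOT-dL lists only left 89 (47.2% within 10 kb, 100% by construction, 10.1%, 48.3%). The 50% reciprocal overlap gave 380 (6 kb, 6.32% with an FDR of at most 0.001 in both, 19.5% near an end). Requiring no other island within 10 kb left 587 regions and, by construction, 0% within 10 kb. Lists of 1114 islands gave 34 (35.5 kb, 20.6% within 10 kb, 100%, 23.5%, 61.8%), of which 5 met 1 of the 1048. Lists of at most 7000 gave 285 (36.8% within 10 kb, 45.6%, 6.67%, 36.1%), of which 184 did. Merging within 1 kb gave 1023 regions, and all chromosomes 1051.

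Leaving out 1 library gave 1050 to 8101 regions, the upper values being 6222 without Epi-HOT-dL replicate 1 and 8101 without replicate 2, where a single culture of the line remains; without a library of another line the count was 1050 to 1524. The other ranges were 3.4 to 10.1 kb for the width, 37.4% to 44.9% within 10 kb, 8.02% to 30.4% with an FDR of at most 0.001, 4.03% to 5.84% on chromosome 19 and 13.9% to 30.2% near an end. For the FDR limit, the share was 30.4% without Epi-HOT-dL replicate 1 and 23.4% without replicate 2. In that pair of settings the limit applied to the remaining library of the line alone, not to both. Without a library of another line it was 8.02% to 10.5%. The cause of the shifts between settings was not tested. No paired analysis was possible because no result comes from a test. The intended comparison of genes and base composition was not run, for want of a reference of the same build.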
